A study of Canis lupus familiaris with 3 samples.

Results

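DNA replication and nucleotide synthesis genes were described in dog MDCK cells carrying the transcription factor E47, relative to the MDCK-CMV control cells. The set was a list of 41 gene symbols covering origin licensing, DNA polymerases, the sliding clamp and its loader, single-strand binding, fragment joining, topoisomerases and deoxynucleotide supply. Of these symbols, 32 matched array spots with a single gene symbol in the platform annotation, and 30 had a value on all 3 arrays. These 30 of the 5508 named genes with such values are the tested members. CDC7 and FEN1 had spots but no spot with a value on every array. The symbols ORC1, ORC2, ORC3, ORC5, CDT1, MCM2, CCNE1, POLA1 and RFC1 matched no spot.

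MDCK is an epithelial line from dog kidney, and E47 is a basic helix-loop-helix protein encoded by TCF3 that the series title names as a repressor acting on E-cadherin. Each array of human cDNA clones compared amplified RNA of E47 transfectants with that of MDCK-CMV cells in opposite dyes. What drives E47 in the transfectants is not stated. Extraction 1 was labelled with Cy5, and extraction 2 was labelled with Cy5 on one array and with Cy3 on another, so n = 2 extractions. All cells were grown in DMEM with fetal bovine serum, penicillin-streptomycin and fungizone, and the protocols call the transfectants MDCK-E47_1 and MDCK-E47_2 without saying whether these are separate clones or cultures. The p-values therefore measure the spread between these extractions, moderated by that of all features. Control RNA was taken as the common reference, and on that assumption they leave out the control's own spread. Extraction 1 has no Cy3 array, so a dye difference also enters this spread and does not fully cancel in the mean.

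All values are log2 ratios of E47 over control. The direction is likely rather than stated, because E47 cells are channel 1 of every sample and CDH1, which encodes E-cadherin, had −3.52, −3.83 and −3.47 on the arrays. With the opposite direction every gene called higher would be lower. Values were read as base 2 logarithms, a base that no label states. TCF3 itself was at −0.27, −0.28 and −0.35, with a mean of −0.29 and an adjusted p of 0.118 in limma's test. These values are below 0 on every array, which runs against this direction for cells that carry E47. Whether the TCF3 clones detect the transfected sequence is not known. The arrays had medians from −0.0051 to 0.0027 and SDs from 0.430 to 0.623 over 24771 to 25537 spots. No intensities were used, so how far a spot stood above background is unknown, and the number of arrays limits the precision. A ratio from bulk RNA cannot tell more cells in S phase from more RNA per cell.

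DNA replication starts at origins, where the origin recognition complex, CDC6 and CDT1 load the ring-shaped MCM helicase in a step that geminin blocks after S phase has begun. The kinases CDC7 and CDK2 then fire the origins, primase and the polymerases copy the strands with the clamp PCNA, and RPA covers the single strands. Ribonucleotide reductase, thymidylate synthase, thymidine kinase and dUTPase supply or clean the deoxynucleotide pool, and many of these genes are transcribed mainly around S phase in dividing cells.

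Of the 30 tested members 8 rose, none fell and 22 did not pass limma's moderated test at a Benjamini-Hochberg adjusted p under 0.05. The 8 were RPA3, DUT, TOP2A, GMNN, RPA1, RRM2, RPA2 and PRIM1, with mean log2 ratios from 0.79 to 1.44. They are 26.7% of the tested members, while 5.34% of all named genes rose, 3.85% fell and 9.19% passed in either direction. At an unadjusted p under 0.05, 17 of 30 members were higher, beside 17.4% of named genes, and 3 of 30 were lower, beside 18.2%. The median log2 ratio of the members was 0.30, against −0.0167 for all named genes. By array the members' median was 0.33 for extraction 1, 0.28 for extraction 2 in Cy3 and 0.25 for extraction 2 in Cy5.

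**Figure D1:**
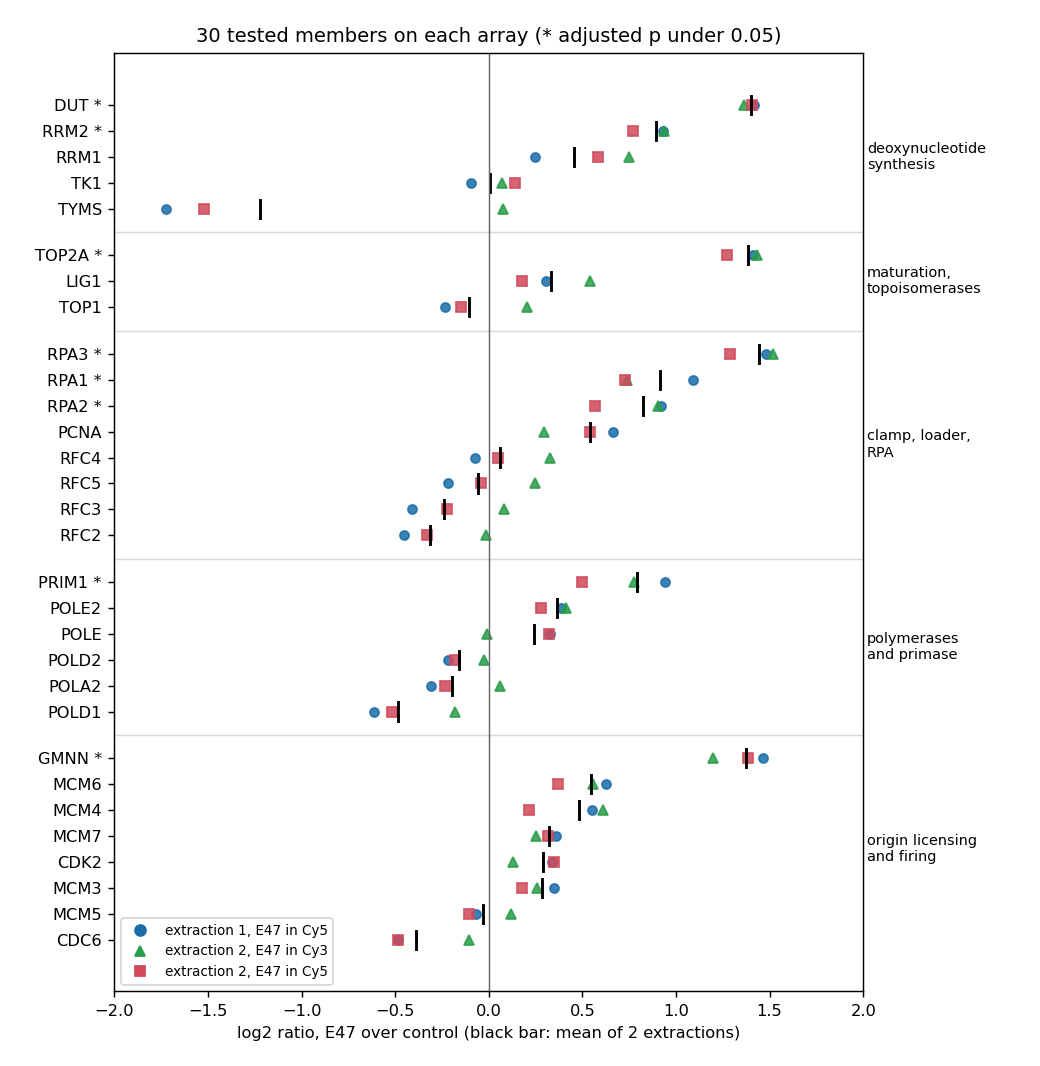
Log2 ratio of E47 over control (x axis) for the 30 tested members by role (y axis), with a marker for each of the 3 arrays and a black bar for the mean of 2 extractions; asterisks mark the 8 members with an adjusted p under 0.05. The 8 marked genes lie above 0 on every array, and TYMS has its Cy3 marker at 0.07 and its Cy5 markers below −1.5.

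On all 3 arrays 17 of the 30 members were above 0 (56.7%), compared with 30.6% of the named genes, and 4 members were below 0 on all arrays (13.3%), compared with 32.8%. Of the 8 that rose, all had the same sign on the 3 arrays, which selection by a test on these same arrays favours. A further 7 members had an adjusted p between 0.05 and 0.10. They were MCM6, MCM4, PCNA and POLE2 with means above 0, and POLD1, TYMS and CDC6 with means below 0. At an adjusted p under 0.10, 12 of 30 members were higher, beside 11.9% of named genes. At that threshold 3 of 30 were lower, near the 10.7% of named genes. The members at or above 2-fold in the mean were RPA3, DUT, TOP2A and GMNN, and TYMS in the other direction. That is 5 of 30 members, beside 262 of 5508 named genes, and TYMS was at 0.07 on the Cy3 array. With natural logarithms 9 of 30 members would reach that fold, beside 540 of 5508 named genes.

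**Figure D2:**
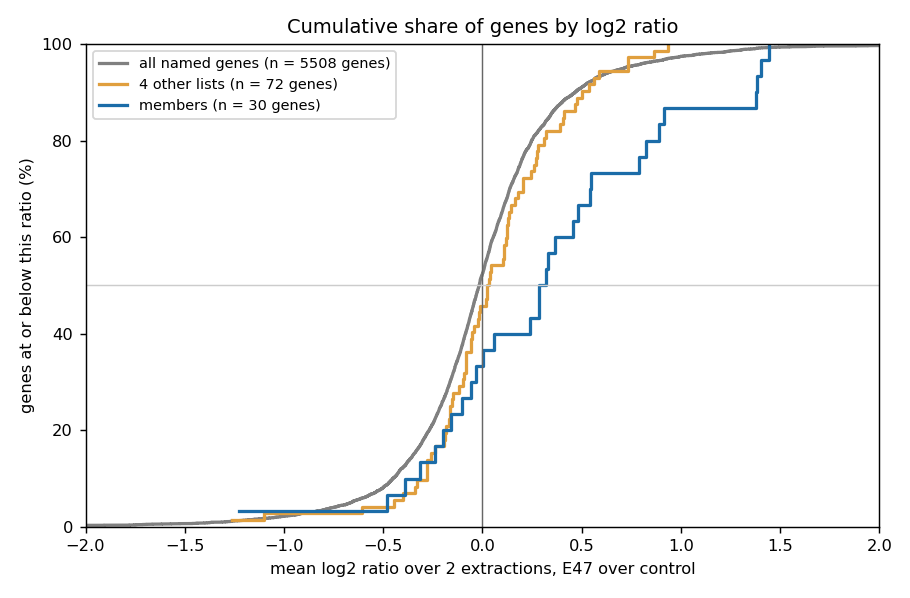
Cumulative percentage of genes (y axis) at or below a given mean log2 ratio of 2 extractions (x axis) for 5508 named genes, 72 genes of the 4 other lists and the 30 tested members. The curve of the members crosses 50% at about 0.30, and those of all named genes and of the other lists cross it near 0, at −0.0167 and 0.0291.

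Among the genes of origin licensing and firing, 1 of 8 tested rose, none fell and 7 did not pass, with a median log2 ratio of 0.30. Beside this and each role group below, 5.34% of all named genes rose and 3.85% fell. The gene that rose was GMNN, which encodes geminin, the inhibitor of the loading factor CDT1. GMNN gave 1.46 for extraction 1, 1.20 for extraction 2 in Cy3 and 1.39 for extraction 2 in Cy5, which puts all arrays more than 2-fold above the control. Its mean was 1.38 ± 0.12 (SD, n = 2 extractions), or 2.60-fold, with an adjusted p of 0.0201. CDC6, which with CDT1 loads the helicase, was the lowest of the group at −0.39, with an adjusted p of 0.0990. It gave −0.48 and −0.49 with E47 in Cy5 and −0.10 with E47 in Cy3, so its distance from 0 was small in one dye orientation.

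The MCM proteins form the replicative helicase. None of the 5 tested subunits passed, although 4 were above 0 on all arrays and had an unadjusted p under 0.05. Of all named genes 30.6% were above 0 on all arrays, and 17.4% were higher at that unadjusted p. MCM6 was at 0.63, 0.56 and 0.37, given like all triplets here for extraction 1 and then for extraction 2 with Cy3 and with Cy5, with a mean of 0.54 ± 0.12 (SD, n = 2) and an adjusted p of 0.0584. Its clones AA663995 and AA976533 had means of 0.54 and 0.55. MCM4 had a mean of 0.48 and an adjusted p of 0.0667, MCM7 one of 0.32 and 0.108, and MCM3 one of 0.28 and 0.136. These values lie between 1.22-fold and 1.46-fold.

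MCM5 had a mean of −0.03, but its 3 clones gave means of −0.52, −0.16 and 0.71. Clone AA045213 was below 0 on all arrays, at −0.61, −0.35 and −0.50, and clone AW673330 was above 0 on all arrays, at 0.63, 1.08 and 0.51. Clone AA285155 was printed at 2 positions, which had −0.39, 0.05 and −0.55 at one and 0.09, −0.31 and 0.12 at the other. The mean of MCM5 therefore averages clones that lie on either side of 0, and the parts of the transcript that they cover are not known.

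Of the kinases that fire origins, CDK2, the partner of cyclin E, was at 0.34, 0.13 and 0.35, with a mean of 0.29 and an adjusted p of 0.127. CDC7, the kinase that phosphorylates the MCM complex, was not tested because its Cy3 array was empty at both spots. On the Cy5 arrays its spots averaged 0.92 and 0.95, and the spots of a pair differed by at most 0.0259.

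Among the polymerases and primase, 1 of 6 tested genes rose, none fell and 5 did not pass, with a median of 0.04. PRIM1, the catalytic subunit of primase, which makes the RNA primers, gave 0.94, 0.78 and 0.50. Its mean was 0.79 ± 0.22 (SD, n = 2), or 1.73-fold, with an adjusted p of 0.0449. All arrays were above 0, but on the Cy5 array of extraction 2 its paired spots gave 0.13 and 0.87. The mean of the whole gene there rests on spots that differed by 0.74.

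POLE2 and POLE, subunits of the leading-strand polymerase epsilon, had means of 0.37 and 0.24, with adjusted p-values of 0.0882 and 0.180. POLE2 was above 0 on all arrays, and POLE had −0.0112 with E47 in Cy3 against 0.33 and 0.32 in Cy5. POLD1, the catalytic subunit of the lagging-strand polymerase delta, was the lowest of the group at −0.62, −0.18 and −0.52, with a mean of −0.48 ± 0.19 (SD, n = 2) and an adjusted p of 0.0849. Its partner POLD2 had a mean of −0.16 and POLA2, a subunit of the polymerase that extends the primers, one of −0.20, with adjusted p-values of 0.279 and 0.255.

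The group of the sliding clamp, its loader and the single-strand binding proteins held 3 genes that rose among 8 tested, none that fell and 5 that did not pass, with a median of 0.30. The 3 that rose encode the subunits of RPA, the complex that coats single-stranded DNA at the fork. RPA3, the smallest subunit, gave 1.48, 1.52 and 1.29, the highest mean of all members at 1.44 ± 0.06 (SD, n = 2), or 2.72-fold, with an adjusted p of 0.0194. It was read from 6 spots of clone H59305 at 3 print positions, and every position was above 1.1 on every array.

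RPA1, the largest subunit, gave 1.09, 0.74 and 0.73, with a mean of 0.91 ± 0.26 (SD, n = 2), or 1.88-fold, and an adjusted p of 0.0412. Extraction 1 was higher than extraction 2, and within extraction 2 the Cy5 minus Cy3 difference was −0.0116. RPA2 gave 0.92, 0.90 and 0.57, with a mean of 0.83 ± 0.13 (SD, n = 2), or 1.77-fold, and an adjusted p of 0.0322. Its clones were unequal in size, with means of 0.43 for BE264851 and 1.22 for R39861, and both were above 0 on all arrays.

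PCNA, the ring that holds polymerases on DNA, gave 0.66, 0.30 and 0.54, with a mean of 0.54 ± 0.17 (SD, n = 2) and an adjusted p of 0.0695. It was above 0 on all arrays and did not pass. The loader that opens this ring is built of RFC subunits, and none of the 4 tested passed. At an unadjusted p under 0.05, where 17.4% of named genes were higher and 18.2% lower, none of the 4 passed either. Their means ran from −0.31 for RFC2 over −0.24 for RFC3 and −0.06 for RFC5 to 0.06 for RFC4, with adjusted p-values from 0.157 to 0.743. RFC3 was read from 1 spot.

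The RFC genes differed between the arrays of extraction 2. All 4 had a lower ratio with E47 in Cy5 than with E47 in Cy3, with differences from −0.32 to −0.28, and 60.3% of all named genes also had the lower ratio in Cy5. Since 1 array has E47 in Cy3, dye and array cannot be told apart here or in any comparison of the dyes that follows. RFC5 had −0.22 and −0.04 with E47 in Cy5 and 0.25 with E47 in Cy3. RFC4 had −0.08, 0.33 and 0.05, and a position of its clone H54752 ran from −0.75 for extraction 1 to 0.45 on the Cy3 array.

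Of the genes for fragment maturation and topoisomerases, 1 of 3 tested rose, none fell and 2 did not pass, with a median of 0.33. TOP2A, the topoisomerase that untangles sister chromatids and is made mainly late in the cycle, gave 1.41, 1.43 and 1.27. Its mean was 1.38 ± 0.04 (SD, n = 2), or 2.61-fold, with an adjusted p of 0.0194, and both print positions of its clone were above 1.1 on every array. TOP1, which relaxes supercoils throughout the cycle, gave −0.24, 0.20 and −0.15, with an adjusted p of 0.528.

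LIG1, the ligase that joins Okazaki fragments, gave 0.30, 0.54 and 0.18, with a mean of 0.33 and an adjusted p of 0.102. It was above 0 on all arrays without passing. FEN1, the nuclease that trims the fragments, was not tested. Its clone AW246270 averaged 0.27 for extraction 1 and 0.20 for extraction 2 in Cy5 and was empty in Cy3, and its clone AA620553 was empty on all arrays.

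In deoxynucleotide synthesis 2 of 5 tested genes rose, none fell and 3 did not pass, with a median of 0.46. DUT, the dUTPase that keeps uracil out of DNA, gave 1.42, 1.36 and 1.41, the closest set of array values among the 8 genes that rose. Its mean was 1.40 ± 0.02 (SD, n = 2), or 2.64-fold, with an adjusted p of 0.0194. It was read from the 2 spots of clone AA489219.

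RRM2, the small subunit of ribonucleotide reductase, whose amount follows S phase, gave 0.93, 0.93 and 0.77. Its mean was 0.89 ± 0.05 (SD, n = 2), or 1.85-fold, with an adjusted p of 0.0251. The clones behind this mean did not give the same ratio. Clone W88654 had a mean of 1.47 and clone BE293995 one of 1.19, both above 0 on all arrays, while clone AA826373 was below 0 on all arrays with a mean of −0.28. A second position of AA826373, left out because its Cy3 value was missing, gave −0.0054 and −0.21 on the Cy5 arrays, and a further clone left out for the same reason, AA187351, gave 1.41 and 1.17. RRM1, the large subunit, gave 0.25, 0.75 and 0.58, with a mean of 0.46 ± 0.30 (SD, n = 2) and an adjusted p of 0.126. A single spot of clone AA633549 had −0.58 for extraction 1, beside 0.57 in the paired spot, and the other clone, BE268379, gave 0.50, 0.55 and 0.47.

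TYMS, the thymidylate synthase, had the lowest mean of all members and the widest spread. It gave −1.73, 0.07 and −1.52, with a mean of −1.22 ± 0.71 (SD, n = 2) and an adjusted p of 0.0849. The negative values came from clone BE280876 on the Cy5 arrays, where its spots had −2.58 and −2.70 for extraction 1 and −1.27 and −3.14 for extraction 2. On the Cy3 array the same spots had 0.11 and 0.04. The other clone, AA663310, gave 0.0986, 0.0710 and −0.16 from 1 spot. The Cy3 array thus lay apart from both Cy5 arrays for BE280876, and the paired spots of extraction 2 in Cy5 differed by 1.87. TK1, the thymidine kinase of the salvage route, gave −0.0954, 0.0687 and 0.14, with a mean of 0.0039 and an adjusted p of 0.980.

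**Figure D3:**
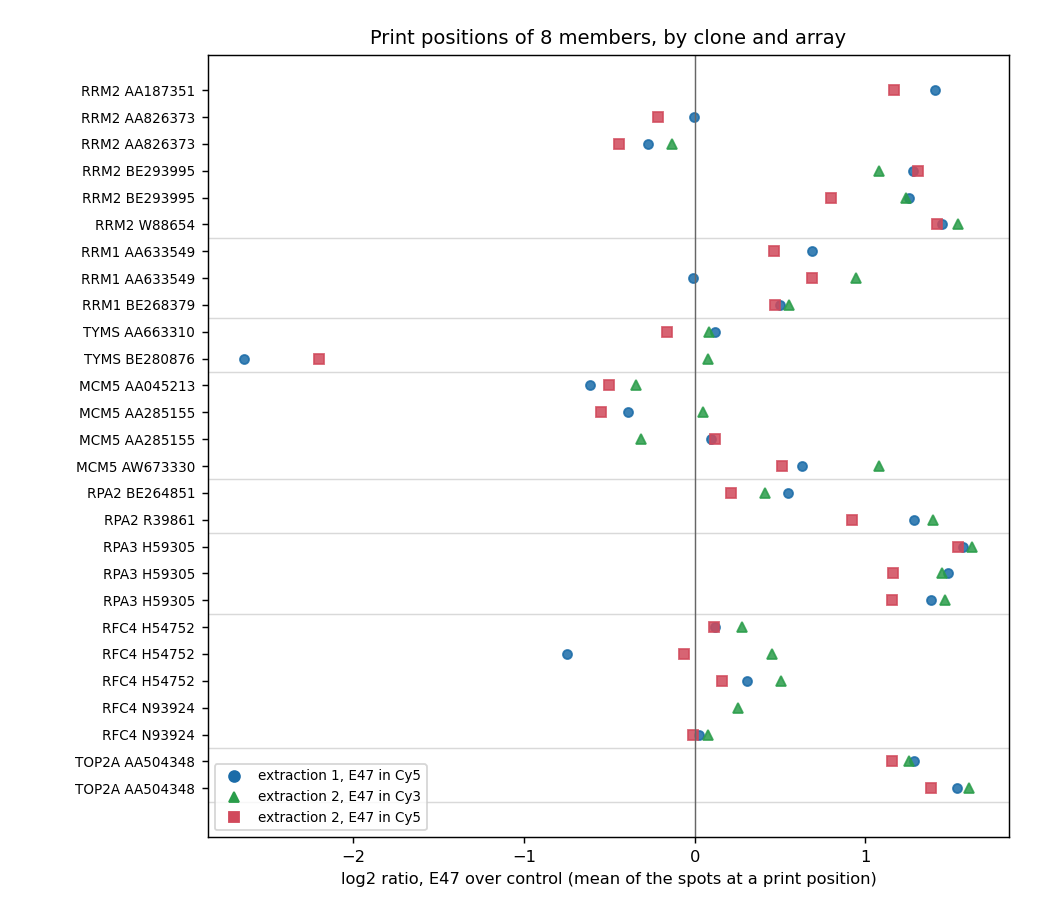
Log2 ratio of E47 over control (x axis) at each print position of 8 members (y axis, gene and clone accession), as the mean of the spots with a value, with a marker for each array. The positions of RPA3 and TOP2A lie above 1.1 on all 3 arrays, and those of RRM2 lie on either side of 0 by clone. Those of MCM5 do so by clone and, for clone AA285155, also by array. TYMS clone BE280876 has −2.64 and −2.20 in Cy5 and 0.08 in Cy3.

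Spots printed side by side gave close values. Over the 159 pairs of member spots on an array the median difference was 0.0382, and 4 pairs differed by more than 0.5, namely 1 each of TYMS, RRM1, RFC4 and PRIM1. Among the 9 tested members with more than 1 clone, the range of the clone means ran from 0.0163 for MCM6 and 0.0380 for RFC4 to 1.75 for RRM2 and 1.88 for TYMS. In 5 of these members, MCM5, RFC5, RRM2, TK1 and TYMS, the clone means had opposite signs. Of these 5 genes only RRM2 passed the test, and it also passed when clones were averaged before genes. Human clones can also bind related dog transcripts, so the values of MCM and RFC genes, which belong to protein families, may not be separate. All 30 tested symbols are in the dog gene table.

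Signs were also compared between the dye orientations. Of the 10 members below 0 on both Cy5 arrays, 6 were above 0 on the Cy3 array (60.0%), compared with 26.2% of such named genes. Of the 18 members above 0 on both Cy5 arrays, 1 was below 0 on the Cy3 array (5.56%), compared with 22.3%. In extraction 2, 23 of the 30 members had a lower ratio with E47 in Cy5 than in Cy3 (76.7%), compared with 60.3% of all named genes. These shares are descriptions, and no difference between them was tested.

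**Figure D4:**
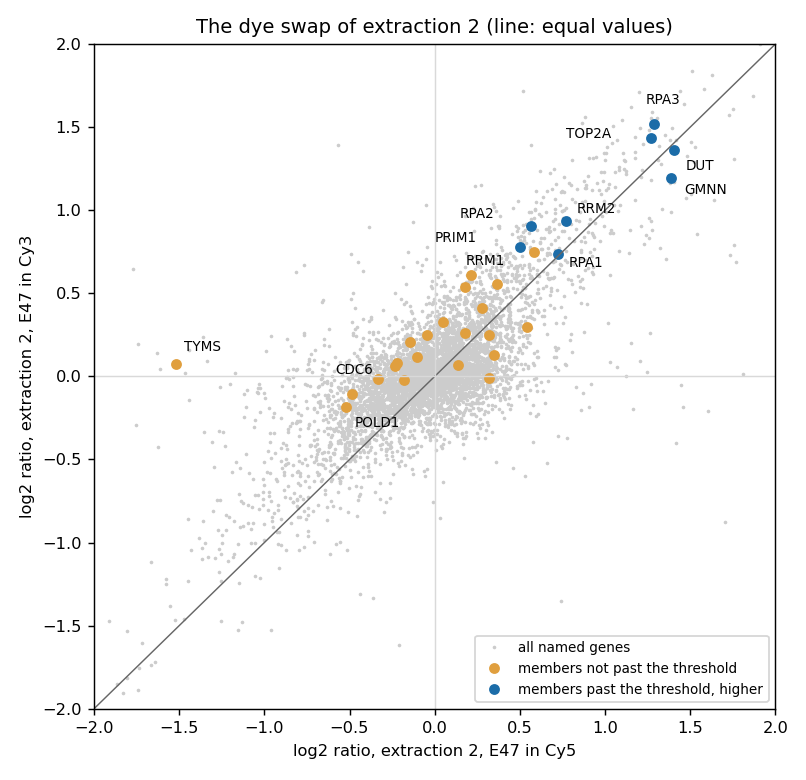
Log2 ratio of E47 over control on the 2 arrays of extraction 2, with E47 in Cy5 (x axis) and in Cy3 (y axis), for all named genes within the plotted range in grey, the 22 members that did not pass in orange and the 8 that rose in blue; the line marks equal values. The blue points lie between 0.50 and 1.52, with Cy5 minus Cy3 from −0.34 for RPA2 to 0.19 for GMNN. TYMS lies far from the line at −1.52 and 0.07.

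The calls depended on the arrays and on their scaling. The 8 genes were above 0 on every array, so combining these same arrays in another way could hardly turn their signs. Without the Cy5 array of extraction 2, 4 of 30 members were higher, DUT, GMNN, RPA3 and TOP2A, beside 1.34% of named genes. With the Cy5 arrays alone, 8 of 30 members were higher, PCNA in place of PRIM1, beside 8.13% of named genes. In that setting 3 of 30 passed as lower, CDC6, POLD1 and TYMS, the last with −1.62, beside 8.55%. When gene values were scaled to a common spread between arrays, no member passed (0.69% of named genes were higher), and the adjusted p of the 8 lay between 0.0505 and 0.0560. When spots were scaled before averaging, 9 of 30 members were higher, the 8 and MCM6, beside 4.79% of named genes. The adjusted p of the 8 then lay between 0.0337 and 0.0400. With a dye term on 3 arrays, 7 of 30 members were higher, beside 7.7% of named genes, and PRIM1 was lost at an adjusted p of 0.0566. The spread in that fit came from the Cy5 arrays alone, since the dye term fits the Cy3 array exactly. There 1 of 30 passed as lower, TYMS with −0.77, beside 5.79%. With p adjusted over named genes only, 12 of 30 members were higher, beside 11.3%, and 2 of 30 were lower, beside 10% of named genes. At an adjusted p under 0.10, 12 of 30 were higher, beside 11.9%, and 3 of 30 lower, beside 10.7%. The shares of lower members were at or below those of all named genes in these last 3 settings. Over 15 alternatives, those that leave out an extraction included, the lowest log2 ratio of the 8 genes was 0.637, that of PRIM1 without extraction 1.

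**Figure D5:**
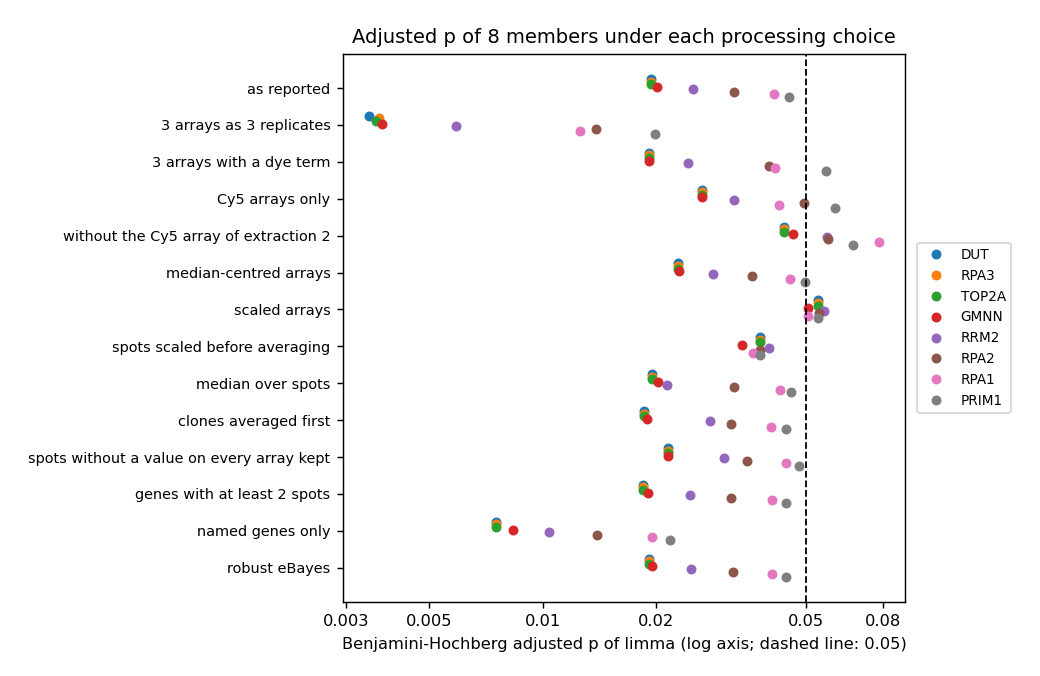
Benjamini-Hochberg adjusted p of limma (x axis, log scale) for the 8 members that rose (colours) under the reported setting and 13 alternatives with a test (y axis); the dashed line is 0.05. Scaled arrays put all 8 between 0.0505 and 0.0560, and leaving out that Cy5 array gives 0.0438 to 0.0783.

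Other genes of the same processes were taken from 4 lists. Of 14 tested replication fork and origin genes outside the members, 1 rose, none fell and 13 did not pass, with a median of 0.06. The gene that rose was DNA2, a nuclease and helicase of Okazaki fragment processing, at 0.93, 1.02 and 0.87, with a mean of 0.94 ± 0.01 (SD, n = 2) and an adjusted p of 0.0241. Of 25 further nucleotide synthesis genes 2 rose, none fell and 23 did not pass, with a median of −0.0120. They were the salvage enzymes HPRT1, which recovers purines, at 0.73 ± 0.13 (SD, n = 2) with an adjusted p of 0.0382, and DCK, the deoxycytidine kinase, at 0.73 ± 0.01 with an adjusted p of 0.0315. These counts of 1 in 14 and 2 in 25 are near the 5.34% of all named genes that rose.

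Of 19 genes that control the step from G1 to S, 1 rose, 1 fell and 17 did not pass, with a median of −0.0436. These shares are near the 5.34% and 3.85% of all named genes that rose and fell. CCNA2, the cyclin A of S and G2 phase, gave 0.87, 0.91 and 0.80, with an adjusted p of 0.0251. CCND2, a D-type cyclin of G1, gave −1.50, −0.83 and −1.22, with a mean of −1.26 ± 0.33 (SD, n = 2), or 2.40-fold lower, and an adjusted p of 0.0328. The list of chromatin assembly and post-replicative repair genes held no gene that passed limma's test among 14. At an unadjusted p under 0.05, 4 of the 14 were higher, beside 17.4% of named genes, and none lower, beside 18.2%. The largest ratios there were CHEK1, a checkpoint kinase, at 0.46 and WRN, a helicase, at 0.41, with adjusted p-values of 0.132 and 0.0826. None of the 5 genes that passed in these lists, whose adjusted p was then from 0.0561 to 0.0969, kept its call when the second Cy5 array was left out.

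Markers of epithelial cells, the type of the MDCK line, and of fibroblasts were also read as ratios, since no levels could be taken from the files. All 7 tested of 10 epithelial markers fell, from −0.92 for CLDN4 to −3.59 for CDH1, beside 3.85% of all named genes. CDH1 had also served to judge the direction of the ratios. With scaled arrays only KRT19 passed limma's test, at an adjusted p of 0.0494. The other tested epithelial markers then lay between 0.05003 and 0.0683. Without the Cy5 array of extraction 2, KRT8, KRT7 and CLDN4 did not pass, at 0.0850, 0.0584 and 0.0608. Of 6 tested of 10 fibroblast markers, COL1A2 had a mean of 0.68 with an adjusted p of 0.0364, and the others had means from −0.28 to 0.31 without passing. The COL1A2 value depended on how its 2 clones were combined: it was 0.26 with an adjusted p of 0.160 with clones averaged first, 0.55 with 0.0925 with incomplete spots kept and 1.49 with 0.0364 as the median over spots. It also did not pass without the Cy5 array of extraction 2, at 0.0896, or with scaled arrays, at 0.0572. The part of cell composition in the members' ratios was not tested.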

How the data were processed

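Each of 3 arrays gave 1 column of log2 ratios as deposited by the authors. How background was corrected and arrays normalized, and which logarithm and direction were used, is not given in the sources used. Base 10 does not hold, because the values reach 7.80, and base 2 was assumed. No sign was turned, since all pairs of columns had r from 0.580 to 0.765 over spots. Of 27648 spots, 17488 had 1 symbol in the platform annotation. Complete spots, measured on all 3 arrays, were averaged per gene; spots with several symbols or none were tested as 8500 unnamed features beside the 5508 genes. The arrays of extraction 2 were averaged, and the ratio was tested against 0 across all 14008 features by limma's lmFit and eBayes (version 3.58.1, R 4.3.3). Adjusted p-values (Benjamini-Hochberg) cover all features, and 0.05 was the threshold. eBayes estimated 2.71 prior degrees of freedom beside 1 residual degree. The test was tried on simulated data without dye, array or clone effects, so that trial does not bear on these effects. SDs are over 2 extractions. All members were to be named, with up to 6 genes that passed, or else the 2 largest, of each other list. The members, lists and tests were chosen with earlier results of these data known. The alternatives changed the replicates, dyes, normalization, spots, features, eBayes setting and threshold. Figures were drawn with matplotlib 3.10.9. No sequences were used.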

Additional observations from a re-analysis of the deposited data

How the results depend on the processing

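The count of 8 members past the threshold, all higher, became 4 without the Cy5 array of extraction 2, 0 with scaled arrays, 14 (12 higher and 2 lower) with named genes only, 0 at an adjusted p under 0.01, which no named gene reached, and 15 (12 higher and 3 lower) at an adjusted p under 0.10. A dye term on 3 arrays gave 7 higher members, without PRIM1, and 1 lower member, TYMS, and the Cy5 arrays alone gave 3 lower. The shares of all named genes stand beside these counts in the results. Of the 72 tested genes of the other lists 5 passed. This became 15 with 3 arrays as replicates, a setting that takes both arrays of extraction 2 as independent. The count was 10 with the dye term and 10 with the Cy5 arrays. It was 0 without the Cy5 array of extraction 2, 1 with scaled arrays, 16 with named genes only, 0 at 0.01 and 16 at 0.10. With spots scaled before averaging, an alternative chosen after seeing the data, it was 8. Of the 5508 named genes, 294 were higher and 212 lower as reported. These became 560 and 448 with 3 arrays as replicates, 424 and 319 with the dye term and 448 and 471 with the Cy5 arrays. They were 624 and 551 with named genes only and 653 and 591 at 0.10. The median of the members ran from 0.26 without extraction 1 to 0.33 without extraction 2 and lay within that range under the other alternatives that could move it. The mean changed sign for 5 members that had not passed: MCM5 was at 0.0152 with the dye term, 0.0243 without the Cy5 array of extraction 2 and 0.0114 with clones averaged first; RFC4 at −0.0118 with the Cy5 arrays; RFC5 at 0.0573 with the dye term and 0.0134 without the Cy5 array of extraction 2; TK1 at −0.0134 without that array and −0.0025 with median-centred arrays; and TOP1 at 0.0065 with the dye term. The signs of these 5 also differed between the extractions, with 0.0062, 0.19, 0.10, 0.10 and 0.03 for MCM5, RFC4, RFC5, TK1 and TOP1 without extraction 1 and −0.07, −0.0750, −0.22, −0.0954 and −0.24 without extraction 2. The cause was not tested. Leaving out an extraction leaves 1 and thus no test. Extraction as a random block was not run, since limma gave no correlation estimate from 3 arrays. No paired analysis was possible because there is 1 group. The smallest adjusted p over all features was 0.0194, and scaling of the gene values lifted all 8 members just above the threshold.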

Other observations

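Spots left out for a missing value on the Cy3 array gave further values for members. POLA2 clone AW247092 averaged −0.33 for extraction 1 and −0.23 for extraction 2 in Cy5, close to the −0.31 and −0.23 of its tested clone. A position of RRM1 clone AA633549 averaged 0.69 and 0.47 on the same arrays. A position of MCM6 clone AA663995 had a value in Cy3 only, at 0.36, as had LIG1 clone R24946 at 0.16 and a position of RFC4 clone N93924 at 0.25. RFC2 clone AA663472 was empty on all arrays. With these spots kept, the median of the members was 0.29.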
